A study of Mus musculus with 31 samples.

Results

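The effect of 1 Met allele of Bdnf on the male mouse heart was read from RNA of 6 Val/Met and 5 Val/Val male hearts, 11 of the 31 hearts in the series. They were chosen by the sex and genotype in their labels, and no measured value entered the choice. Each sample is a whole heart of a mouse of 8 weeks of age. The Met allele is a knock-in hBDNF allele, and Val/Met mice carry 1 copy of it while their Val/Val littermates carry none. The labels give hBDNF as the transgene of all groups, Val/Val included, whereas the study describes its controls as mice with mouse Bdnf, so a human in place of a mouse sequence cannot be told apart from the amino acid change. Both parents of each mouse were heterozygous, and the groups were drawn from shared litters as far as possible.

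BDNF is a secreted neurotrophin, made as a larger precursor that proteases such as furin and plasmin cut to the mature form. The mature form signals through the receptor TrkB, and the precursor through p75NTR with sortilin as its partner. The Val66Met change lies in the precursor part and is known for lowering the activity-dependent release of BDNF from neurons. In the heart, BDNF and TrkB are known to act on endothelial survival and on the contraction of cardiac muscle.

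The deposited table held 13840 genes, of which 13733 with a mean of at least 29 deposited units over the 31 hearts were tested. The values, here called deposited units, are described by the study as read counts normalized to the total of the heart. Such scaling alone does not produce the equal batch means given below. The further step is not stated in the sources used here. The values of 10 of the 11 hearts summed to between 28711900 and 29066000 units, and the eleventh, Val/Val replicate 4, held 1 extreme value, 9.19e+12 units for the pseudogene Gm4613. By the number that opens each heart's label, the hearts fell into 3 batches, of 2, 1 and 2 Val/Val hearts and of 3, 1 and 2 Val/Met hearts. Apart from 2 genes, Gm4613 and Rps23-ps2, mean log2 values of the batches within a genotype differed by no more than 0.001. Val/Val replicate 3 and Val/Met replicate 4, each alone in its group and batch, therefore lay at their group means, and Val/Val replicates 1 and 2, like 4 and 5, lay at equal log2 distances on either side. Only 2 degrees of freedom among Val/Val and 3 among Val/Met hearts remained, and the fit shared its spread over all 31 hearts with 17. Each batch held hearts of both genotypes. With batch means equal within a genotype, however, what the batches themselves added to a difference cannot be read from these values.

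Differences between the male genotypes were small. The interquartile range of the log2 fold changes (Val/Met minus Val/Val) ran from -0.08 to 0.07 with a median of -0.01, and 61.1% of the genes lay within 0.1 of zero. At a limma p under 0.05, 430 genes (3.13% of those tested) were called, 138 (1.0%) higher and 292 (2.13%) lower in Val/Met hearts. When the fold change also had to reach 1.5, the rule of the study, 16 genes were higher (0.117%) and 19 lower (0.138%), together 0.255% of those tested. At a log2 fold change of 0.32 or more in size, 39 were higher (0.284%) and 79 lower (0.575%), together 0.859%. No gene passed after adjustment: 0 of the 13733 had a Benjamini-Hochberg adjusted p under 0.05 in limma, and the smallest adjusted p was 0.947. Below, a gene "passed" where its unadjusted, 2-sided limma p was under 0.05, and "called" adds the fold change named. Every gene that passed and is named below had an adjusted p of 0.947 in limma. The counts moved with single hearts: the 35 genes called at 1.5-fold became 68 without Val/Val replicate 2, 59 without replicate 5 and 21 without replicate 4, and 23 without Val/Met replicate 3. The 11 fits without 1 heart are not independent checks. Val/Val replicate 3 and Val/Met replicate 4 lay at their group means, so leaving either out hardly moved a log2 fold change, though a p could move. Leaving out 1 heart of a Val/Val pair left its partner, on the other side of the mean, alone in that batch. The median standard error of a log2 fold change was 0.10, so that the 95% interval of a typical gene reached 0.21 to either side.

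Of the 35 genes called at 1.5-fold, 14 were protein-coding in GENCODE M21, 10 of them lower and 4 higher in Val/Met hearts. The other 21 were pseudogenes, small nuclear and nucleolar RNAs, unspliced or predicted transcripts, and 3 symbols without a match. In 8 of the 35 genes, 3 higher and 5 lower, no Val/Met heart overlapped a Val/Val heart, against 1.87% of all genes tested. The 35 were selected for their difference in these same hearts, so a larger share among them is built in. Those named here are Sdf2l1, Adcy8 and Rsc1a1 among the coding genes, and Gm20427, Gm3470, Gm5503, Gm43330 and Gm38374 among the others.

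**Figure D1:**
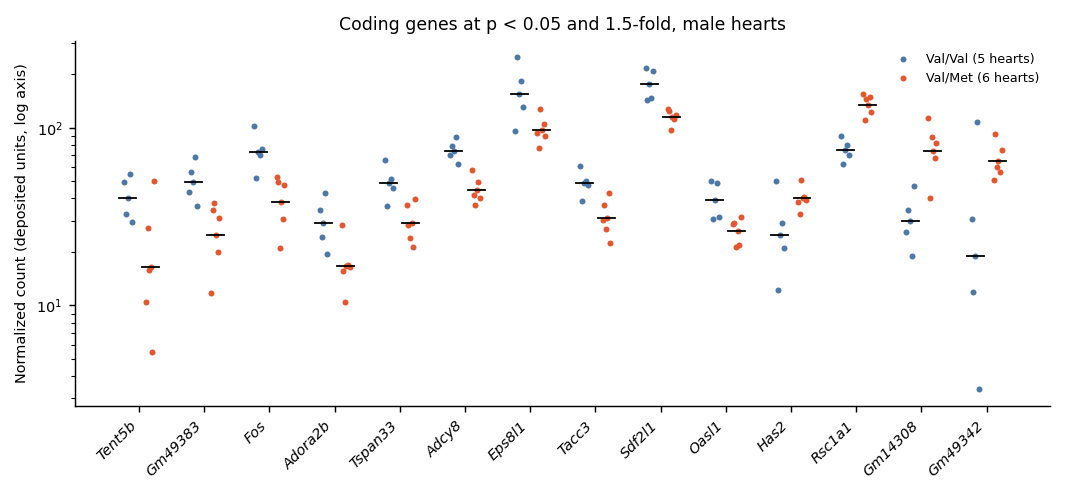
Normalized counts in deposited units (log axis) of the 14 coding genes called at 1.5-fold, in 5 Val/Val (blue) and 6 Val/Met (orange-red) male hearts, 1 point per heart. Black bars are geometric means, and the groups of Adcy8, Sdf2l1 and Rsc1a1 do not overlap.

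Of the 41 tested genes of adrenergic, muscarinic and cyclic AMP signalling, 2 were called lower at 1.5-fold in Val/Met hearts and 0 higher, against 0.138% lower at this rule among all genes. Adora2b (chr11:62248984-62266453, plus strand, GRCm38) encodes the adenosine A2B receptor, which couples to cyclic AMP synthesis. It read 34.5, 24.3, 29, 43.1 and 19.5 units in Val/Val replicates 1 to 5, and from 10.4 through a median of 16.6 to 28.5 units in Val/Met hearts. The groups overlapped in their extremes. The log2 fold change of Adora2b was -0.79 ± 0.30 (SE) and it passed when any 1 of the 11 hearts was left out. Adora2b lies near the minimum level for testing. The study names it for female hearts, as lower in Val/Met and Met/Met mice.

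Adcy8 (chr15:64697084-64922296, minus strand) encodes an adenylyl cyclase stimulated by calcium and calmodulin. Its Val/Val hearts read 70.0, 78.8, 74.3, 88.7 and 62.2 units, and its Val/Met hearts ranged from 37.0 to 57.7 units with a median of 43.4. Every Val/Met heart was below every Val/Val heart. The log2 fold change was -0.73 ± 0.31 and did not pass without Val/Met replicate 3 or Val/Val replicate 4. The median log2 fold change of the 41 genes was -0.01, equal to that of all genes.

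Among 23 immediate early genes, which respond within minutes to stimulation, 1 was lower and 1 higher at a p under 0.05, against 3.13% of all genes in either direction. Fos (chr12:85473890-85477273), a subunit of the transcription factor AP-1, read 102, 52.4, 73.2, 70.5 and 76.0 units in Val/Val hearts. In Val/Met hearts it ranged from 21 to 53.1 units with a median of 42.9, so that the highest Val/Met heart just passed the lowest Val/Val heart. Its log2 fold change was -0.94 ± 0.39, and Fos did not pass without Val/Val replicate 1 or Val/Met replicate 3. Egr1, a zinc finger transcription factor of the same early response, was higher by 0.34 ± 0.16, a call that 9 of the 11 fits without 1 heart did not make. The other 21 members had p-values above 0.05, and 19 of the 23 had a log2 fold change below zero. Their median was -0.11, and it ran from -0.18 to -0.05 without 1 heart and was -0.05 after the length centring described below.

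The remaining lower coding genes have varied roles. Tent5b, of a family of noncanonical poly(A) polymerases, read 49.6, 32.8, 40.3, 55.2 and 29.5 units in Val/Val hearts, against 5.48 to 49.9 units (median 16.1) in Val/Met hearts. The log2 fold change of Tent5b, -1.29 ± 0.51, was the lowest of the 35 called genes, while 1 Val/Met heart lay within the Val/Val range.

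Tacc3, a protein of the mitotic spindle, had a log2 fold change of -0.65 ± 0.23 and passed in all 11 fits without 1 heart. The tetraspanin Tspan33 (-0.74 ± 0.33) did not pass without Val/Val replicate 1 or 4 or Val/Met replicate 2, 3 or 5. Eps8l1, of the EPS8 family of actin regulators (-0.67 ± 0.30), did not pass without Val/Val replicate 2 or 4 or Val/Met replicate 2 or 6. Both groups overlapped in Tacc3, Tspan33 and Eps8l1. Tacc3 and Eps8l1, like Oasl1, Gm49383 and Gm49342 below, each have a neighbour with an exon on the opposite strand. The strand setting of the counting was not given in the sources used here.

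Oasl1, an interferon-induced gene of the OAS family, read 50.3, 30.8, 39.4, 49.0 and 31.7 units in Val/Val hearts and 21.3 to 31.3 units (median 27.5) in Val/Met hearts. Its log2 fold change was -0.59 ± 0.25, and it did not pass without Val/Val replicate 1 or 4 or Val/Met replicate 3. Dhx58, which encodes the RNA sensor LGP2, read 55.2, 46.1, 50.5, 50.9 and 50.1 units against 31.2 to 44.0 units, without overlap (-0.49 ± 0.19). These 2 were the only ones of 50 interferon response genes with a p under 0.05 (4.0% lower, against 2.13% of all genes). The median of the 50 was -0.02. Irgm1, named by the study, had a log2 fold change of -0.04 ± 0.15.

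Of the 4 coding genes called higher, 2 share exons with other genes on the same strand, so that their reads cannot be assigned with certainty. Rsc1a1 (chr4:141683851-141685599) lies within an exon of Ddi2 on the minus strand. It read 89.6, 62.8, 75, 80.3 and 70.1 units in Val/Val hearts and 110 to 155 units (median 140) in Val/Met hearts, without overlap, a log2 fold change of 0.85 ± 0.26. Ddi2, a protease, had a log2 fold change of 0.09 ± 0.05. Gm49342 shares exons with Pnp and Pnp2 and ranged from 3.37 to 108 units within the Val/Val group alone. The log2 fold change of Gm49342 was 1.78 ± 0.82, a call that 7 of 11 fits without 1 heart did not make. Gm49383, called lower (-1.0 ± 0.46), likewise shares exons with Rpl36al and Dnaaf2 and was not called in 7 of those 11 fits.

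Gm14308, a predicted coding gene on chromosome 2, had the smallest p of all genes. Its Val/Val hearts read 25.9, 34.4, 29.9, 19.0 and 46.9 units, and its Val/Met hearts 40.4 to 114 units with a median of 77.9. The log2 fold change was 1.31 ± 0.34 (adjusted p = 0.947 in limma), and the lowest Val/Met heart lay below the highest Val/Val heart. Has2, a hyaluronan synthase of the extracellular matrix, read 50.3, 12.2, 24.8, 29 and 21.2 units against 32.8 to 50.7 units (median 39.7). That is a log2 fold change of 0.69 ± 0.33, but 8 of the 11 fits without 1 heart gave a p above 0.05, and the antisense gene Has2os overlaps it. Of the 49 extracellular matrix genes tested, a list that does not hold Has2, 0 had a p under 0.05.

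Complement factor D (Cfd, an adipsin made mostly by fat cells and named by the study) stayed below the minimum level and was not tested. Its Val/Val hearts read 31.4, 42.9, 36.7, 64.2 and 21 units, and its Val/Met hearts ranged from 4.74 to 13.6 units with a median of 7.78. No hearts overlapped. Without a minimum level, the log2 fold change of Cfd was -2.22 ± 0.60 (adjusted p = 0.946 in limma). Markers of fat cells summed over 6 genes reached 6007 to 8607 units in Val/Val and 6003 to 8529 units in Val/Met hearts, and 0 of the 5 tested had a p under 0.05. Their part in the difference in Cfd was not tested.

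Bdnf itself (chr2:109674700-109727007, plus strand) did not differ detectably between the groups. It read 221, 375, 288, 221 and 374 units in Val/Val hearts, and 275 to 394 units with a median of 305 in Val/Met hearts. The log2 fold change was 0.14 ± 0.19, with a 95% interval from -0.26 to 0.53. These are reads of the gene as a whole and do not tell the Val from the Met allele.

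Of the neurotrophins, their receptors and the proteases that process them, 13 were tested and 0 of them had a p under 0.05. The ligand gene Ntf3 (-0.31 ± 0.22) had a median of 48.5 units in Val/Met against 60.7 units in Val/Val hearts. Among the sorting receptors, the sortilin gene Sort1 had a log2 fold change of -0.03 ± 0.11, Sorcs2 of -0.11 ± 0.11 and Sorl1 of 0.01 ± 0.12. Among the proteases, Furin (-0.11 ± 0.08), Pcsk5 (-0.10 ± 0.13), Pcsk6 (-0.04 ± 0.09), Pcsk7 (-0.08 ± 0.07), Plat (0.04 ± 0.11) and Mmp2 (-0.08 ± 0.12) all lay within 0.12 of zero. Mmp3 had the widest error, 0.28 ± 0.38. The receptor genes Ntrk2, Ntrk3 and Ngfr were not analysed here.

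Downstream of TrkB, 1 of 36 genes passed (2.78%, against 3.13% of all genes). Camk2d, the main calcium/calmodulin kinase of the heart, read 5373, 6450, 5887, 5791 and 5985 units in Val/Val and 6211 to 6704 units (median 6379) in Val/Met hearts. Camk2d had a log2 fold change of 0.13 ± 0.06, and 8 of 11 fits without 1 heart gave a p above 0.05, as did length centring.

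**Figure D2:**
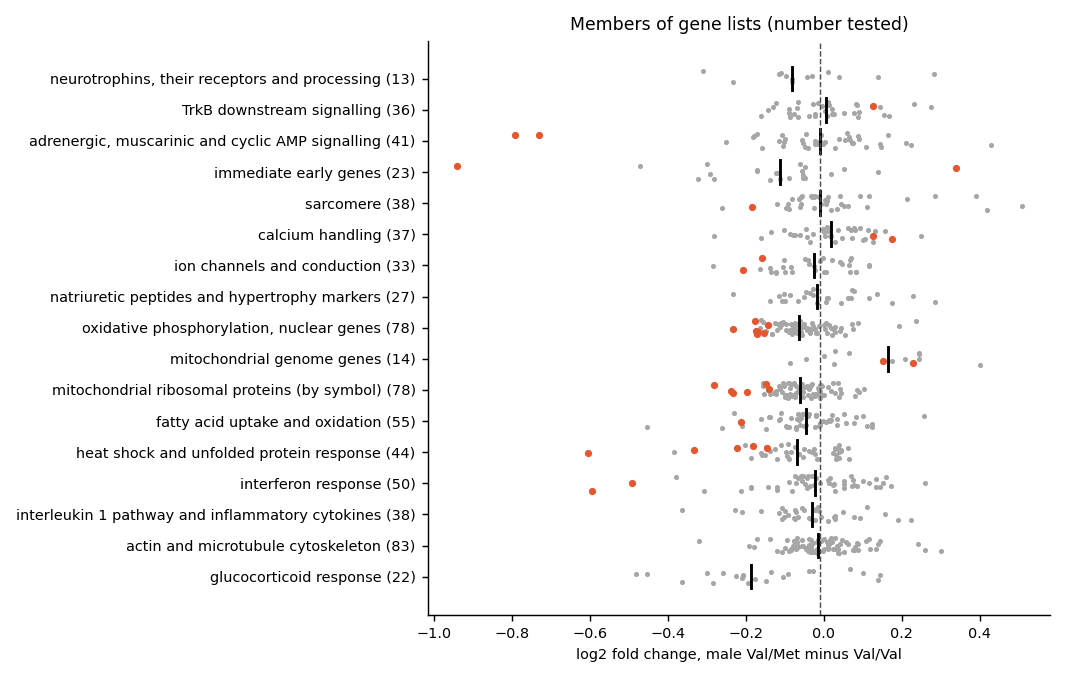
Log2 fold changes of the tested members of 17 gene lists (male Val/Met minus Val/Val), 1 point per gene, orange-red where p was under 0.05. Black ticks are list medians, and the dashed line is the median of all genes (-0.01). Most lists centre near that line, with the mitochondrial genome at 0.16, the glucocorticoid response at -0.19 and immediate early genes at -0.11.

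In the lists of contraction and rhythm, no gene that passed had a log2 fold change beyond 0.32. Of 38 sarcomere genes 1 was lower (2.63%, against 2.13% lower of all genes), namely Myl3, the ventricular essential light chain of myosin. It read 121338, 113589, 117400, 134010 and 102848 units in Val/Val and 97037 to 113613 units (median 103427) in Val/Met hearts, a log2 fold change of -0.18 ± 0.08, and it did not pass without Val/Val replicate 1 or 4 or Val/Met replicate 3. Val/Met replicates 4, 5 and 6 all held 103427 units. The cardiac genes named by the study had log2 fold changes of -0.06 ± 0.06 for Myl2, -0.10 ± 0.08 for Tcap, 0.08 ± 0.29 for Nppb and -0.03 ± 0.11 for Atp2a2, and none of them passed.

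Of 37 calcium handling genes, Camk2d and Ppp3cb were higher (5.41%, against 1.0% higher of all genes). Ppp3cb, a catalytic subunit of calcineurin, had a log2 fold change of 0.17 ± 0.08, and 7 of 11 fits without 1 heart gave a p above 0.05, as did length centring. Of 33 genes of ion channels and conduction, 0 were higher and 2 were lower, against 2.13% lower of all genes, and both encode transcription factors of the conduction system. Irx3 read 1196, 1102, 1148, 1215 and 1085 units against 915 to 1080 units (median 1002), without overlap, a log2 fold change of -0.21 ± 0.07. Nkx2-5 read 1612, 1416, 1511, 1507 and 1515 units against 1318 to 1405 units (median 1354), also without overlap (-0.16 ± 0.06), but did not pass without Val/Val replicate 1 or after length centring. Irx5, a relative of Irx3 outside the list and named after its value was seen, also did not overlap, at 270 to 303 units in Val/Met and 318 to 385 units in Val/Val hearts (-0.28 ± 0.10). None of the ion channel genes on the list had a p under 0.05. Of 27 tested natriuretic peptide and hypertrophy genes 0 had a p under 0.05.

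The genes of heat shock and of the unfolded protein response, which refold proteins or relieve load in the endoplasmic reticulum (ER), held 5 lower and 0 higher genes of 44 at a p under 0.05, 11.4% lower against 2.13% of all genes. The 5 were Sdf2l1, Manf, Hyou1 and Pdia6, which encode proteins of the ER, and Xbp1, a transcription factor that acts on their genes, and the cytosolic heat shock proteins on the list had p-values above 0.05. The median of the 44 was -0.07, and 30 of them had a log2 fold change below zero. Without Val/Val replicate 1, 2 of the 44 were lower, without Val/Met replicate 3 there were 3, without Val/Val replicate 2 there were 8, and 4 to 6 when another heart was left out.

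Sdf2l1 (chr16:17130138-17132383, minus strand), a cofactor of the ER chaperone BiP, had the largest difference. It read 216, 142, 175, 147 and 209 units in Val/Val hearts and 97.1 to 127 units (median 117) in Val/Met hearts, and no hearts overlapped. Its log2 fold change was -0.61 ± 0.21, with a p under 0.05 in all 11 fits without 1 heart. Manf, a secreted protein of the ER stress response, read 1122, 905, 1008, 869 and 1170 units against 689 to 968 units (median 791).

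Manf had a log2 fold change of -0.33 ± 0.13 with overlapping groups and passed in all 11 fits, although its annotated span covers an exon of Rbm15b. Xbp1, the transcription factor spliced by IRE1 under ER stress, read 1988, 1583, 1774, 1832 and 1717 units against 1501 to 1637 units (median 1559). Xbp1 hearts overlapped, with a log2 fold change of -0.18 ± 0.07, and the gene did not pass without Val/Val replicate 1. Splicing of Xbp1 cannot be read from gene totals.

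Hyou1, an ER chaperone also induced by low oxygen, read 3088, 2638, 2854, 2908 and 2801 units against 2314 to 2704 units (-0.22 ± 0.10). Pdia6, a protein disulfide isomerase named after its value was seen, read 2015, 1880, 1946, 1850 and 2047 units against 1666 to 1902 units (-0.15 ± 0.06). Hyou1 did not pass without Val/Val replicate 1 or 4 or Val/Met replicate 1, 3 or 6, nor Pdia6 without Val/Val replicate 1 or 5 or Val/Met replicate 1 or 3, and both groups overlapped in each. Other ER chaperones stood with Hspa5 (BiP) at -0.11 ± 0.10, Calr at -0.14 ± 0.08, Creld2 at -0.20 ± 0.14, Canx at 0.03 ± 0.05 and Hsp90b1 at -0.02 ± 0.12, and none of them passed.

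The promoters of ER stress genes are known to hold the ER stress response element (CCAAT, any 9 bases, then CCACG), read by ATF6 and XBP1 together with NF-Y. On either strand, this motif was found in 39 of 32851 RefSeq promoter windows of GRCm38.p6 (0.119%), each from 250 bases before to 50 bases after a gene start. Of the 34 list genes with a window, 6 held it, namely Calr, Canx, Creld2, Hsp90b1, Hspa5 and Pdia6. The second form of the element (ATTGG, any 1 base, then CCACG) was in 12 windows (0.0365%), Herpud1 among them. Of the 5 lower genes, Pdia6 held the first form, Sdf2l1 and Xbp1 had a window without either form, and Manf and Hyou1 were not among the windows. The first 200 bases of 3 windows are shown, with the match in capitals, for a lower gene with the motif, a gene with the motif that did not pass, and the gene with the largest difference.
Pdia6 (chr12:17266339-17266538, plus strand): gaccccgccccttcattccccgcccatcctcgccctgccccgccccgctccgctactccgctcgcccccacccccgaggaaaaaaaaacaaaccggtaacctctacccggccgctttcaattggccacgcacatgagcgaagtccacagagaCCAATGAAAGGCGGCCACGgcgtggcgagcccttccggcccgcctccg
Creld2 (chr15:88819396-88819595, plus strand, motif on the reverse strand): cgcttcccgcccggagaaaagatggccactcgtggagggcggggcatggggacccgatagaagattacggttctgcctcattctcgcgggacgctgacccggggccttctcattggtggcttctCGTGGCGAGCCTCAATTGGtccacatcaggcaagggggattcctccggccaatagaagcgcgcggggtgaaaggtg
Sdf2l1 (chr16:17132434-17132633, minus strand): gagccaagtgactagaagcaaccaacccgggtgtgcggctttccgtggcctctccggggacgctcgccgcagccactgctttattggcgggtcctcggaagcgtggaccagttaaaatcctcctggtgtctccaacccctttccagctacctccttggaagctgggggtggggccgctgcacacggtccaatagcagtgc
The match began 98 bases before the gene start in Pdia6 and 126 bases before it in Creld2. A match says only that these letters are present.

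**Figure D3:**
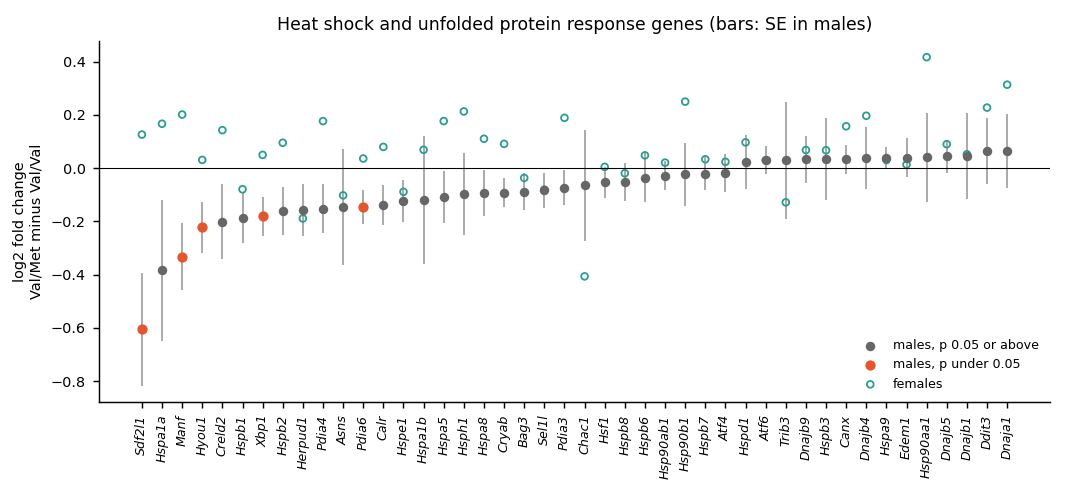
Log2 fold changes (Val/Met minus Val/Val) of the 44 heat shock and unfolded protein response genes, ordered by the male value. Filled points are males with bars of ± 1 SE, orange-red where p was under 0.05, and open points are females, which lie above the male points in 38 of the 44 genes.

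Nuclear genes of oxidative phosphorylation held 7 lower and 0 higher genes of 78 at a p under 0.05, 8.97% lower against 2.13% of all genes, and their median was -0.06. The 7 came from complex I (Ndufa7, Ndufa8, Ndufb2, Ndufb11), complex III (Uqcr10), complex IV (Cox8a) and the ATP synthase (Atp5e). Ndufa7 had the smallest p, at 2599, 2278, 2433, 2354 and 2515 units in Val/Val and 1983 to 2248 units (median 2072) in Val/Met hearts, without overlap (-0.23 ± 0.07). Uqcr10, at 4714, 4681, 4697, 4469 and 4938 units against 3796 to 4418 units, did not overlap either (-0.18 ± 0.06). The 7 log2 fold changes ran from -0.14 to -0.23. There were 2 lower genes without Val/Val replicate 1, 11 without Val/Val replicate 2 and 5 to 8 when another heart was left out, and only Ndufa7 and Uqcr10 of the 7 kept a p under 0.05 each time.

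Mitochondrial ribosomal proteins, grouped by symbol after the data were seen, held 6 lower and 0 higher genes of 78 at a p under 0.05 (median -0.06), against 2.13% lower of all genes. There were 2 lower genes without Val/Val replicate 1, 13 without Val/Val replicate 2 and 3 without Val/Met replicate 6. Mrps24 was among the 5 lower genes of smallest p in the whole table. Mrps24 read 1557, 1290, 1418, 1464 and 1372 units against 1152 to 1275 units, without overlap (-0.23 ± 0.07). Of 14 genes transcribed from the mitochondrial genome, 2 were higher and 0 lower, against 1.0% higher of all genes, and 12 had a log2 fold change above zero (median 0.16).

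Both higher genes encode subunits of complex I. For mt-Nd4, Val/Val hearts read 122039, 138650, 130080, 127030 and 133203 units and Val/Met hearts 135642 to 158812 units (0.15 ± 0.07). For mt-Nd5 they read 146750, 186999, 165656, 154724 and 177362 units against 171403 to 238633 units (0.23 ± 0.11). The groups overlapped in both, and neither gene passed without Val/Val replicate 1 or 4 or Val/Met replicate 5. In addition, mt-Nd4 did not pass without Val/Met replicate 1, nor mt-Nd5 without Val/Val replicate 3 or Val/Met replicate 3. Without Val/Val replicate 5, 4 genes of this list were higher. Cardiomyocyte markers, which mark the cells richest in mitochondria, had 12 of 13 log2 fold changes below zero (median -0.08). At a p under 0.05, 1 of the 13 was lower, Myl3, against 2.13% lower of all genes. The summed level of these markers was 1791840 to 1903150 units in Val/Val and 1639780 to 1920190 units in Val/Met hearts. The part of this level in the mitochondrial differences was not tested. In whole hearts, fewer cells of a type and less RNA per cell cannot be told apart.

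Fuel metabolism held few calls. The lists of this paragraph stand beside 2.13% lower and 1.0% higher of all genes at a p under 0.05. Of 55 genes of fatty acid uptake and oxidation 1 was lower, Dgat1, which makes triglyceride, at 346 to 355 units in Val/Val and 277 to 337 units in Val/Met hearts, without overlap (-0.21 ± 0.09). Of 35 genes of glycolysis and glucose uptake 1 was higher, Ugp2, which makes UDP-glucose (0.20 ± 0.08). Dgat1 did not pass without Val/Val replicate 5 or Val/Met replicate 1 or 5, nor Ugp2 without Val/Val replicate 2 or 4 or Val/Met replicate 1. Of 23 hypoxia genes, Bnip3l, a mitophagy receptor, was higher (0.20 ± 0.08) and Adm, the vasodilator adrenomedullin, lower (-0.26 ± 0.11). Bnip3l did not pass without Val/Val replicate 2 or Val/Met replicate 3, nor Adm without Val/Val replicate 1 or 5 or Val/Met replicate 1, 3 or 5. In the cell cycle list of 27, only Mcm7, part of the replicative helicase, had a p under 0.05 (-0.18 ± 0.07), and its hearts did not overlap.

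No gene had a p under 0.05 in 3 lists, namely 83 genes of the actin and microtubule cytoskeleton (median -0.01), 38 genes of the interleukin 1 pathway and inflammatory cytokines (-0.03) and 23 markers of myeloid cells (-0.06). Summed over 24 genes, myeloid markers reached 7997 to 14879 units in Val/Val and 9459 to 11543 units in Val/Met hearts, with the Val/Met range inside that of Val/Val. The lowest p-values in these lists belonged to Cyfip1 (-0.10 ± 0.05) of the WAVE complex, the inflammasome adaptor Pycard (0.19 ± 0.11) and the chemokine receptor Ccr2 (0.45 ± 0.26). Antigen presentation (23 genes), complement (21), the circadian clock (20) and endothelial nitric oxide signalling (21) also had 0 genes with a p under 0.05. So did 22 glucocorticoid response genes, of which 18 had a log2 fold change below zero (median -0.19), with Dusp1, a phosphatase that turns off MAP kinases, nearest at -0.30 ± 0.14.

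Among markers of other cells and tissues, 1 gene of 104 tested outside the myocyte lists had a p under 0.05, against 3.13% of all genes. Prox1, known from lymphatic endothelium and also made by cardiac muscle, was higher at 4905 to 5743 units against 4386 to 5185 units (0.15 ± 0.05), in all 11 fits without 1 heart. Markers of blood cells and platelets summed to 67526 to 121548 units in Val/Val and 50646 to 247759 units in Val/Met hearts. The highest value was that of Val/Met replicate 3, and the other 5 hearts of its group reached 50646 to 100080 units. This heart also held the lowest sums of its group for cardiomyocyte markers and for nuclear oxidative phosphorylation genes (707902 units, against 738254 to 799360 in the other 5), and the highest for the mitochondrial genome and for epicardial markers. Without it, 5 lower nuclear oxidative phosphorylation genes, 3 lower ER and heat shock genes, 4 lower mitochondrial ribosomal genes, 1 higher mitochondrial genome gene and 0 cardiomyocyte markers had a p under 0.05. What else set this heart apart was not tested. All 13 cardiomyocyte markers were in the table, as were all 13 of fibroblasts and all 15 of endothelium. Genes of the Y chromosome and Xist were not analysed here.

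Among all genes, the direction of the difference went with the class and the length of the RNA. The median log2 fold change was above that of all genes for small nucleolar RNAs (0.33 over 20 genes), small nuclear RNAs (0.30 over 18), sense intronic transcripts (0.21 over 50) and TEC transcripts, a GENCODE class still to be tested by experiment (0.19 over 442). At a p under 0.05 these classes, 530 genes together, held 18 higher and 0 lower genes, 3.40% higher and 0 lower against 1.0% and 2.13% of all genes. There were 10 higher genes without Val/Val replicate 4, 34 without replicate 2 and 45 without replicate 5, and at most 2 lower ones whichever heart was left out. By heart, and relative to the Val/Val mean, the TEC median lay -0.26, 0.26, 0.00, -0.25 and 0.25 from that of all genes in Val/Val replicates 1 to 5 and 0.02 to 0.33 in Val/Met hearts, with Val/Val replicates 2 and 5 inside the Val/Met range. Of the TEC transcripts, 369 of 442 lay within an intron of another gene on the same strand, as did 50 of the 50 sense intronic ones, so their reads cannot be told from unspliced RNA of that gene. Processed pseudogenes leaned the other way, with a median of -0.06 over 591 and 1 higher (0.169%) against 34 lower (5.75%). After the length centring described next, however, the median was 0.00, with 8 higher and 25 lower. Leaving out 1 heart gave 23 to 44 lower and 0 to 12 higher pseudogenes, the 12 without Val/Val replicate 5.

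Protein-coding genes followed their exonic length. In the shortest of 5 equal bins (204 to 2670 bases, 2366 genes) the median log2 fold change was -0.07. At a p under 0.05 this bin held 9 higher (0.380%) and 110 lower genes (4.65%), against 1.0% and 2.13% of all genes. In the longest bin (7956 bases and more, 2365 genes) the median was 0.04, with 44 higher (1.86%) and 13 lower (0.550%). Beside the 4.65% of the shortest bin, the lower share was 8.97% for nuclear oxidative phosphorylation genes and 7.69% for mitochondrial ribosomal genes. Higher coding genes had a median exonic length of 7117 bases and lower ones of 2842 bases, against 4688 bases over all coding genes tested. The difference between the medians of the longest and the shortest bin was -0.15, 0.15, 0.00, -0.04 and 0.04 in Val/Val replicates 1 to 5, each relative to the Val/Val mean. In Val/Met hearts it ranged from 0.02 to 0.17, and Val/Val replicates 2 and 5 lay within that range. For length centring, bins were cut anew over all tested genes of known length, noncoding ones included, with genes of unknown length as a further bin. Removing the median deviation of each such bin from every heart was an alternative chosen after the data were seen. It gave 58 higher and 59 lower genes at a log2 fold change of 0.32 or more in size, in place of 39 and 79. At 1.5-fold it gave 18 higher and 14 lower in place of 16 and 19.

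The same centring bore on the lists of short genes. The 78 nuclear oxidative phosphorylation genes, with a median length of 1675 bases, had a median of -0.01 after it in place of -0.06, with 6 of the 7 lower genes and Atp5k higher, while Atp5e no longer passed. The ER and heat shock list kept its 5 lower genes and had 0 higher ones, with a median of -0.03. Of the mitochondrial ribosomal genes 5 were lower, 4 of them among the 6 above (median -0.03). The mitochondrial genome list had a median of 0.23 and its 2 higher genes. Myl3, Camk2d, Ppp3cb, Nkx2-5, Adm and Gm49383 no longer passed, so that the sarcomere and cardiomyocyte lists had 0 lower genes. The part of RNA length in these differences was not otherwise tested.

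**Figure D4:**
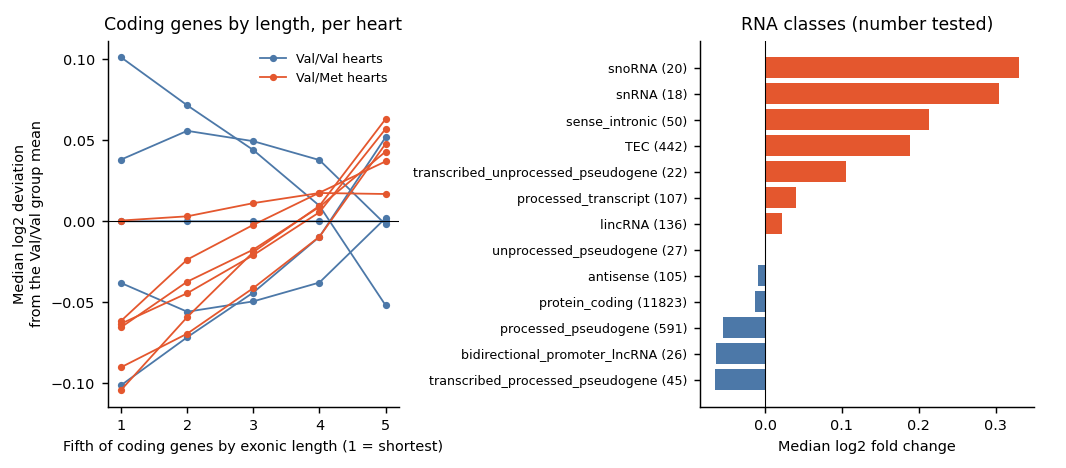
Left, the median log2 deviation from the Val/Val mean of coding genes in 5 bins of exonic length (1 is the shortest), 1 line per heart, with 5 Val/Val (blue) and 6 Val/Met (orange-red) hearts. Right, the median log2 fold change by RNA class, positive for snoRNA, snRNA, sense intronic and TEC genes and -0.01 for coding genes.

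The small nuclear RNAs include U2, the RNA that pairs with the branch point in splicing, which is encoded by many near-identical genes. Gm24950, Gm23971 and Gm23849, all called higher, and Rnu2-10 lie between bases 101627366 and 101658428 of chromosome 11 and have 1 and the same sequence of 191 bases, so that no read within them can name its gene. Related genes on chromosome 1 differ from it at few positions, counted from 1 at the 5′ end, as G109C in Gm23472 and G109C and C186A in Gm24497. The shared sequence and these relatives are shown with differing bases in capitals, as DNA letters.
Gm24950, Gm23971, Gm23849 and Rnu2-10: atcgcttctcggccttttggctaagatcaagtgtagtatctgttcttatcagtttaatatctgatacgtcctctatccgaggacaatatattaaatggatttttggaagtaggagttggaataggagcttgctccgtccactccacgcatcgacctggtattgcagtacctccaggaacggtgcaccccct
Gm23472 (chr1:72236946-72237136): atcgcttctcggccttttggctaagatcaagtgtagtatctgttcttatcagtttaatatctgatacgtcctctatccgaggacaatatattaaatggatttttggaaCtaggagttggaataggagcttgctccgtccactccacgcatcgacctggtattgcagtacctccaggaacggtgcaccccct
Gm24497 (chr1:72244213-72244403): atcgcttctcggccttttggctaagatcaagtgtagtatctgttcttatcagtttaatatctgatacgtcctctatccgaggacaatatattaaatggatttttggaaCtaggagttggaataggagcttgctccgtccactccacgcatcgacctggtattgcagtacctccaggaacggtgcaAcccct
The single genes swung widely between hearts of 1 group. Gm23849 read 890, 126, 334, 241 and 464 units in Val/Val hearts, and Gm23971 read 111, 597, 258, 173 and 384 units in the same hearts, high where the other was low in replicates 1 and 2. Their log2 fold changes of 1.38 ± 0.59 and 1.26 ± 0.54 are therefore uncertain, and neither passed without Val/Val replicate 4 or Val/Met replicate 3.

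A sum of plain read counts over the 4 identical genes would not depend on how reads were shared out among them. The deposited values, however, have equal log2 batch means gene by gene, from a step that is not stated. The sum of these values can therefore still depend on the sharing. It reached 3502, 3180, 3071, 2150 and 4388 units in Val/Val hearts and 3561 to 9148 units, with a median of 5127, in Val/Met hearts. The mean log2 difference of the sum was 0.75. Of the 6 Val/Met hearts, Val/Met replicate 3 was the highest, and replicate 2 the lowest, below Val/Val replicate 5. Over all 10 genes of 191 bases the difference was 0.58, again with overlap.

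**Figure D5:**
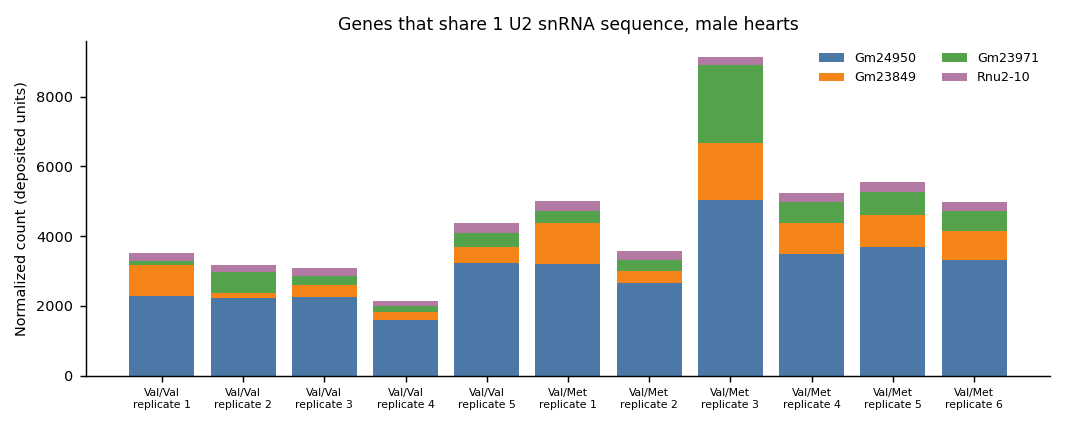
Stacked normalized counts in deposited units of the 4 genes with an identical U2 sequence in each of the 11 male hearts. The total is 2150 to 4388 units in Val/Val and 3561 to 9148 units in Val/Met hearts, and the shares of Gm23849 and Gm23971 change from heart to heart.

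A second pair of small nuclear RNA genes, Gm24265 and Gm24407 on chromosome 5, differ as G88A and C99A in 141 bases, shown in capitals.
Gm24265 (chr5:115489459-115489599): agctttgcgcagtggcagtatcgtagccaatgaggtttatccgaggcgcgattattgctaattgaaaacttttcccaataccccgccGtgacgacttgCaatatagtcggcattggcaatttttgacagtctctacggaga
Gm24407 (chr5:115490254-115490394): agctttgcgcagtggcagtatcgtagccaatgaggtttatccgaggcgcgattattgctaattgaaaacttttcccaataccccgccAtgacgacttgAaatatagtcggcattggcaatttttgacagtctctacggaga
Together they read 866, 549, 689, 404 and 1175 units in Val/Val hearts and 874 to 1345 units (median 1078) in Val/Met hearts, with 2 Val/Val hearts near or within the Val/Met range. Gm24265 was called at 1.5-fold (0.69 ± 0.26), and Gm24407 had a log2 fold change of 0.58 ± 0.27. Of the 6 called processed pseudogenes, 2 were copies of 1 sequence. Gm10359 and Gm12671 share an identical sequence of 1002 bases and had the same value in all 31 hearts, so that their 2 calls (-0.70 ± 0.26 each) are 1 measurement.

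The male difference was set beside that in females, 6 Val/Val and 4 Val/Met hearts of the same age, in the same limma fit. The difference of the 2 effects (male minus female) had a p under 0.05 in 262 of 13733 genes (1.91%), at 1.5-fold in 51 (0.371%), and an adjusted p under 0.05 in 0, the smallest adjusted p being 0.9999. The differences between the sexes given next passed unadjusted unless stated. Most of the genes named were chosen for their male effect. That effect is 1 term of the difference, so a large difference is partly built in. In the ER and heat shock list, 6 of 44 genes had a lower effect in males than in females at a p under 0.05 and 0 a higher one, against 0.779% lower and 1.13% higher of all genes. This lean was not particular to that list, whose median difference was -0.12. The difference was below zero in 23 of 23 antigen presentation genes (median -0.34) and 49 of 50 interferon response genes (-0.23). Cytosolic ribosomal protein genes held 5 lower and 0 higher of 77. Other lists leaned the other way, as Zfp zinc finger genes with 6 higher and 1 lower of 320. Manf stood at -0.33 ± 0.13 in males and at 0.20 ± 0.14 in females, where it did not pass, a difference of -0.53 ± 0.19. Sdf2l1 differed by -0.73 ± 0.31 and Xbp1 by -0.23 ± 0.11.

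Other genes also differed between the sexes, and all but Cabp1 were named for their male effect. Adcy8 (-0.73 ± 0.31 in males, 0.28 ± 0.33 in females) differed by -1.01 ± 0.45, and Rsc1a1 by 1.05 ± 0.39. Prox1 differed by 0.22 ± 0.08. Dipk1a, a gene without a position in the annotation used, was higher in males at 170 to 184 against 136 to 153 units (0.29 ± 0.08) and had a female effect of -0.23 ± 0.09. Its difference was 0.52 ± 0.12. Cabp1, a calcium binding protein named by the study, had a log2 fold change of 0.09 ± 0.14 in males and 0.59 ± 0.14 in females (difference -0.50 ± 0.20).

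Several genes had male and female effects on the same side. Adora2b was at -0.79 ± 0.30 in males and -1.25 ± 0.32 in females, with a difference of 0.46 ± 0.44. Irx3 was at -0.21 ± 0.07 and -0.32 ± 0.07 (difference 0.11 ± 0.10), and Mrps24 at -0.23 ± 0.07 and -0.18 ± 0.07. None of these 3 differences passed, which does not show that the effects were equal.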

How the data were processed

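RNA of whole hearts was sequenced in 31 mice. The values deposited by the authors were a signal. The study describes reads per gene scaled by library total, which alone does not produce the equal batch means. The further step is not stated in the sources used here. Submitters' processing notes name STAR 3.5.1a and Partek. The study states alignment to mm10 with Ensembl annotation. The labels and the study name different RNA preparation kits. Depth is not recoverable from normalized values, so no counting interval is given.

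Values were log2 transformed after adding 0.0001, and genes with a mean under 29 units over 31 hearts were left out. limma 3.58.1 (R 4.3.3) fitted 1 mean per group and batch over all 31 hearts (17 residual degrees of freedom). The contrast weighted batches by their hearts, with a trended variance prior and Benjamini-Hochberg adjustment. The fit was tested on simulated data. Gene positions and classes came from GENCODE M21 (GRCm38, 13570 symbols matched).

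Members and gene lists were chosen with earlier results of these data known. Most genes named with values were drawn from those called at 1.5-fold, the 5 smallest p-values in each direction, and neurotrophin and study-named genes. Members of smallest p in each list were added. The text gives only some of the genes that this rule covers. Replicates are separate hearts. Alternatives were batch handling, offset, minimum level, scaling, length centring (added after the data were seen) and leaving out each heart. Some genes of the lists are not reported here by name.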

Additional observations from a re-analysis of the deposited data

Results flagged for a closer look

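Among the 64 named genes with a p under 0.05, each group of 5 or 6 hearts was searched for a heart far from the others, 128 groups in all. One was found. Ndufa7, a subunit of complex I, read 2248 units in Val/Met replicate 2, the highest of its group, and the gap to the next heart was 0.645 of the range of the group. Chance marks about 1 in 20 groups of independent hearts, a rate that does not apply here. The paired Val/Val hearts lie at equal log2 distances from a heart at the mean, so that no Val/Val heart could be marked where the batch means are equal, and Val/Met replicates 4 to 6 are bound to their batch means in the same way. The p of Ndufa7 stayed under 0.05 without this heart.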

How the results depend on the processing

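With 1 mean per group and no batch term, 53 genes were called at 1.5-fold, 217 at a log2 fold change of 0.32 or more and 1149 at a p under 0.05 in place of 35, 118 and 430. A fit with a replicate block gave 54, 242 and 1093. A minimum mean of 290 units gave 4, 13 and 258, and equal weight per batch gave 276 at a p under 0.05. For the male minus female effect (51, 140 and 262), the fit without batch gave 88, 309 and 721, the replicate block 106, 321 and 685, and the higher minimum 12, 37 and 153. Fewer genes are tested at the higher minimum. The cause of the other shifts was not tested. Without batch, 2 genes, Dipk1a and Map3k21, had an adjusted p under 0.05 for this difference, in place of 0. Same-numbered hearts had r from -0.35 to -0.21 over 3 pairs, 0 of them closest to their own number. Paired Val/Val hearts lie at equal distances on either side of the mean, so these r values are not free to show a pairing. Whether same-numbered hearts belong together was not tested. Leaving out 1 heart gave 21 to 68, 82 to 254 and 244 to 969 genes, and 47 to 61, 122 to 195 and 210 to 378 for the difference. At a p under 0.05, 244 were left without Val/Val replicate 1, 261 without replicate 4, 969 without replicate 2 and 686 without replicate 5. An adjusted p under 0.05 was reached by 0 to 1 gene in both, the 1 being the pseudogene Rps23-ps2 without Val/Met replicate 5 or 6. Of 1368 checks of the 64 named genes, 1228 kept their side of the threshold, 140 lost it and 0 changed sign. All 518 checks of 37 list medians moved by less than the spread between hearts. Length centring moved the split at 0.32 to 58 higher and 59 lower. Spread among 2 and 3 degrees of freedom limits what could be detected.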
